A study of Rattus norvegicus with 8 samples.

Results

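Transcripts of 10 genes made by fibroblasts or laid down in the extracellular matrix were followed in the right stellate ganglion of 4 Wistar rats and 4 rats of the spontaneously hypertensive strain (SHR). Each gene was represented by 1 RefSeq transcript record, out of 18314 records in the deposited quantification, and the set was a list of named genes, with no threshold on their values. It held the type I collagen chains Col1a1 (NM_053304) and Col1a2 (NM_053356), type III collagen Col3a1 (NM_032085), fibronectin Fn1 (NM_019143) and the collagen-binding glycoprotein Sparc (NM_012656). It also held the small leucine-rich proteoglycans Dcn (NM_024129), Bgn (NM_017087) and Lum (NM_031050), the matrix Gla protein Mgp (NM_012862) and the metalloproteinase inhibitor Timp1 (NM_053819). The rats were male and aged 16 weeks, with 1 ganglion and 1 library per rat. The SHR is an inbred strain that develops high blood pressure, and the Wistar rats served as the normotensive control. Neither group carried a treatment or an engineered allele. The strains differ across the genome, so blood pressure and genetic background cannot be told apart in this design. The study cleaned the ganglia and removed their sheath before extraction, and asked which transcripts differed between the strains.

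The stellate ganglion supplies most of the sympathetic nerve fibres of the heart. Its neurons are wrapped by satellite glia and lie in connective tissue with fibroblasts, vessels and resident immune cells, and a sheath of perineurium and epineurium surrounds it. Fibrillar collagens give this tissue its tensile strength. Fibronectin links collagen to cell surface integrins, and decorin, biglycan and lumican bind collagen fibrils and affect their assembly. Mgp restrains calcification of soft tissue, and Timp1 inhibits the metalloproteinases that degrade matrix. Several of these genes are not exclusive to fibroblasts. Sparc, for example, is also made by glia and endothelium.

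The estimated counts summed to between 25820299 and 35509074 per rat. All 10 records were among the 13659 that passed the filter on low counts, and no other record of these genes was in the files. Within each strain no pair of rats agreed within counting noise, with a chi-square per degree of freedom between 23.2 and 121. The largest value was between SHR replicates 1 and 3. In counts scaled by library size and composition, SHR replicate 1 was the highest of the SHR rats for each of the 10 genes. Their strain differences are therefore given with and without it. The labels name ganglion tissue, and the neuronal transcripts Npy and Tubb3 stood at 16564 ± 1793 and 10184 ± 335 TPM in Wistar (SD, n = 4). TPM is a transcript level corrected for transcript length and library depth. By TPM, Timp1 was highest in SHR replicate 3 (45.7) and not in SHR replicate 1 (44.9).

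Together the 10 genes made up between 0.186% and 0.381% of all TPM in a rat. Sparc was the most abundant, at 1256 ± 149 TPM in Wistar and 1103 ± 152 TPM in SHR (SD, n = 4 per strain), and ranked 145 among all records by mean TPM. Dcn followed with 744 ± 166 and 743 ± 371 TPM, and Mgp with 451 ± 59.9 and 418 ± 241 TPM. Lum stood at 175 ± 36.2 and 119 ± 54.1 TPM, and Bgn at 72.0 ± 10.1 and 58.0 ± 39.8 TPM. The order Sparc, Dcn, Mgp, Lum, Bgn was the same in 8 of 8 rats. The collagens and Timp1 lay lower and close together, with Col1a2 at a mean of 44.0, Timp1 at 41.4, Col3a1 at 29.5 and Col1a1 at 28.9 TPM over the 8 rats. Col1a2 exceeded Timp1 in 4 of 8 rats and Col3a1 exceeded Col1a1 in 5 of 8, so the order of those neighbours was not fixed. Fn1 was lowest, at 7.21 TPM over the 8 rats, and stood below Col1a1 in 8 of 8.

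Summed over the 10 genes, the level in Wistar replicates 1 to 4 was 2840.5, 2979, 3320.1 and 2319 TPM. In SHR replicates 1 to 4 it was 3811, 2542, 1862 and 2087 TPM. SHR replicate 1 was thus the highest of the 8 rats, and SHR replicates 3 and 4 were the lowest. The strain means were 2865 ± 416 and 2576 ± 871 TPM (SD, n = 4 per strain), and the groups overlapped. In whole tissue, fewer cells of a type and less RNA per cell cannot be told apart.

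Promoter sequence was at hand for 4 of the 10 genes, from RefSeq's annotation of the GRCr8 assembly, a later build than the rn6 transcripts used for the counts. The 4 stretches are shown because no others of the set were at hand. Each holds 150 bases, from 250 to 101 bases before the annotated start, written 5′ to 3′ on the strand of the gene. Capitals mark a match to the TATA box (TATAAA), the CCAAT box (CCAAT) or the GC box (GGGCGG), searched on both strands, so that ATTGG and CCGCCC are reverse matches.
Col1a2, chr4:33518307-33518456, plus strand: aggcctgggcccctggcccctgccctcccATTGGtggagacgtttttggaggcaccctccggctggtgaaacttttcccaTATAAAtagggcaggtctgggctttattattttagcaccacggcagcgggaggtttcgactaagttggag
Sparc, chr10:40038917-40039066, minus strand: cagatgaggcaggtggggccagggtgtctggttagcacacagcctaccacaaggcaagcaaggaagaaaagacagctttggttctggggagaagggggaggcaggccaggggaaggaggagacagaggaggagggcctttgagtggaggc
Lum, chr7:34245456-34245605, plus strand: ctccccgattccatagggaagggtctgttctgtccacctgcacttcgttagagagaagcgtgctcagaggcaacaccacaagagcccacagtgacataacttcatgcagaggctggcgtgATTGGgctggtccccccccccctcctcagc
Timp1, chrX:3771223-3771372, minus strand: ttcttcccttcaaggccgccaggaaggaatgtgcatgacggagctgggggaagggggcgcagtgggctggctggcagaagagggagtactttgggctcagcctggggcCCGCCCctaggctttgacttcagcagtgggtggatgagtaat

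The Col1a2 stretch held a TATA box whose first base lay at position -170 and a reverse CCAAT box at -221. Lum held a reverse CCAAT box at -130, Timp1 a reverse GC box at -142, and the Sparc stretch held no match to these letters. Over the same window of 33469 promoters, 7.69% held a TATAAA, 21.46% a CCAAT and 16.5% a GGGCGG on either strand. Bases nearer the start were not searched, so a match, or the lack of one, describes letters in this window only. The matches were not tested against the counts.

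The fibrillar collagens form the fibres of connective tissue. Normalised counts, which are estimated counts scaled by library size and composition, were 4337, 4834, 7281 and 3668 for Col1a1 in Wistar replicates 1 to 4 and 5933, 2832, 2510.2 and 3352 in SHR replicates 1 to 4. SHR replicates 2 to 4 therefore lay below every Wistar rat, while SHR replicate 1 lay above 3 of them. Col1a2 gave 4868, 5750.4, 8739.5 and 5245 in Wistar and 7469, 4074, 3569 and 3152 in SHR. Col3a1 gave 3946, 4764, 6146 and 3493 in Wistar and 5318, 2935, 1964 and 2760.2 in SHR. All 3 collagens had the same arrangement, with Wistar replicate 3 highest of the 8 rats, SHR replicate 1 next and the other SHR rats lowest. In the quasi-likelihood test of edgeR, Benjamini-Hochberg adjusted over the 13659 records, the log2 fold change of SHR over Wistar was -0.46 ± 0.286 for Col1a1 (standard error, adjusted p = 0.446), -0.43 ± 0.278 for Col1a2 (adjusted p = 0.462) and -0.50 ± 0.284 for Col3a1 (adjusted p = 0.405). None of these differences exceeded the spread between rats.

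Fn1, which anchors cells to collagen, gave 1699, 2236, 3005 and 1562 in Wistar and 2331, 1622, 608 and 961 in SHR. SHR replicates 3 and 4 lay below every Wistar rat, and SHR replicate 2 lay within the Wistar range. Its log2 fold change was the most negative of the set at -0.62 ± 0.371 (edgeR, adjusted p = 0.429). Sparc, which binds collagen and modulates contacts between cells and matrix, gave 75889, 64894.5, 68745 and 54970.4 in Wistar and 72937, 58391, 51012 and 52978 in SHR. The lowest and highest of the 8 rats differed 1.49-fold for Sparc against 4.94-fold for Fn1. The log2 fold change of Sparc was -0.17 ± 0.136 (edgeR, adjusted p = 0.558).

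The proteoglycans had their widest spread within SHR. Dcn (decorin) gave 25441, 24673.5, 28748 and 16881.5 in Wistar and 41714, 26674, 10522.5 and 20278 in SHR. SHR replicate 1 was above and SHR replicate 3 below every Wistar rat, so the strain means, 23936 ± 5024 and 24797 ± 13088 (SD, n = 4 per strain), lay close together. Bgn (biglycan) gave 4235, 4869, 5149.8 and 4171 in Wistar and 7526, 4418, 1574 and 1903 in SHR. Wistar rats lay within 1.23-fold of each other for Bgn, whereas SHR rats spanned 4.78-fold. Bgn was also the member whose estimated count was not whole in 8 of 8 rats, which happens when Salmon divides reads with another record, so its level is the least certain. Lum (lumican) gave 5226, 6204, 6788 and 4586 in Wistar and 6587, 4386, 2184 and 2873 in SHR, with SHR replicates 2 to 4 below every Wistar rat. The log2 fold changes were 0.05 ± 0.342 for Dcn (edgeR, adjusted p = 0.957), -0.26 ± 0.417 for Bgn (adjusted p = 0.796) and -0.51 ± 0.296 for Lum (adjusted p = 0.417).

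Mgp, the calcification inhibitor, gave 3828, 4216, 4577 and 3711 in Wistar and 7093, 4357, 1751 and 2504 in SHR. As for Bgn, SHR replicate 1 was above and SHR replicates 3 and 4 below every Wistar rat, and the log2 fold change was -0.06 ± 0.353 (edgeR, adjusted p = 0.954). Timp1, the metalloproteinase inhibitor, gave 633, 569.7, 578 and 616 in Wistar and 717, 705, 631 and 644 in SHR. It was the only one of the 10 for which SHR replicates 3 and 4 were not below the Wistar mean, and the whole set of 8 rats lay within 1.26-fold. Its log2 fold change was 0.17 ± 0.102 (edgeR, adjusted p = 0.431).

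**Figure D1:**
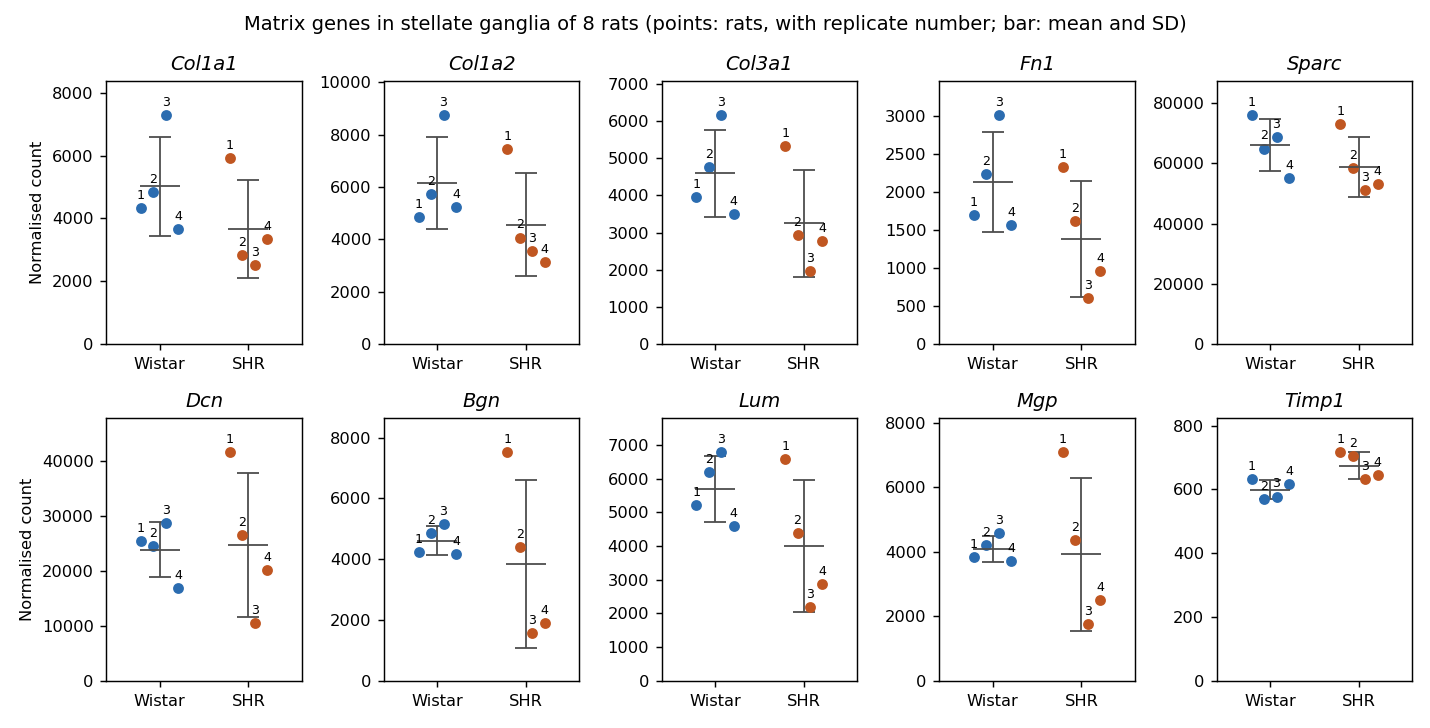
Normalised count (linear axes from 0) of each of the 10 genes in 4 Wistar and 4 SHR rats. Points are rats with their replicate number, and the bar shows the mean and SD of each strain. SHR replicate 1 lies above the other SHR rats in every panel, and the strains overlap in every panel.

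No gene of the set passed the adjusted threshold of 0.05 by edgeR, 0 in either direction, where 1.69% of all records tested were called lower and 1.16% higher in SHR, or 2.85% in all. None had an unadjusted p under 0.05 either, a level reached by 16.8% of all records. DESeq2, the tool used in the study, called 0 of the 10 and 5.72% of all records. In normalised counts the strains overlapped for each of the 10 genes, whereas 10.6% of all records tested had no overlap between the 4 and 4 rats. For Timp1 this depended on the unit. Its TPM ran from 38.8 to 40.2 in Wistar and from 40.9 to 45.7 in SHR, without overlap. The share of all records without overlap in TPM was not computed. The fold changes were negative for 8 genes and positive for Dcn and Timp1, with a median log2 fold change of -0.34, beside 0.01 over all records tested.

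The rat-to-rat spread of the set was larger than that of most records, chiefly in SHR. The median coefficient of variation was 46.6% over the 10 genes in SHR and 18.2% over all records tested. In Wistar the medians were 19.1% and 14.9%. Bgn had the largest value in SHR, at 71.5%, followed by Mgp at 60.6%, Fn1 at 55.1% and Dcn at 52.8%. Sparc and Timp1 had 16.8% and 6.35%, and Timp1 varied less than all but 5.32% of the records. Wistar replicate 3 was the highest rat for 5 genes and SHR replicate 1 for 4, while SHR replicate 3 was the lowest for 8.

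When SHR replicate 1 was left out, each fold change of the set moved down. That direction was set beforehand, because this rat was the highest SHR rat for each gene in normalised counts. The median log2 fold change went from -0.34 to -0.79, against 0.01 over all records in that fit. Over the 8 fits that each left out 1 rat, the median ran from -0.79 to -0.19. Fn1 then stood at -1.0 ± 0.334, Lum at -0.86 ± 0.230, Col3a1 at -0.85 ± 0.211, Bgn at -0.81 ± 0.313, Col1a1 at -0.80 ± 0.221 and Col1a2 at -0.77 ± 0.206 (log2, standard error). Dcn changed sign, to -0.32 ± 0.282, and Timp1 remained positive at 0.14 ± 0.108. By edgeR the smallest adjusted p was 0.0628, for Col3a1, and 0 of 10 passed, where 3.28% of all records did. Of the 10, 7 were lower in SHR at an unadjusted p under 0.05, compared with 11.9% of all records. With the 8 rats, 0 of the 10 had an unadjusted p under 0.05. SHR replicate 1 was left out because of its values for these genes, and not for its values in other records. The median and shares over all records are therefore no fair scale for the set in this fit, and 7 of 10 against 11.9% shows no excess.

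DESeq2 without SHR replicate 1, a fit chosen after the data were seen, called 4 of the 10 lower in SHR, where it called 6.18% of all records lower. These were Col3a1 (DESeq2, adjusted p = 0.00139), Lum (adjusted p = 0.00296), Col1a2 (adjusted p = 0.00335) and Col1a1 (adjusted p = 0.00433). They were also the 4 genes for which SHR replicates 2 to 4 lay below every Wistar rat, an arrangement held by 9.73% of all records. The call thus depended both on the tool and on 1 rat, and nothing in the labels sets SHR replicate 1 apart from the other SHR rats. That rat was left out because of its values for these genes, so the 4 calls are no separate support for a strain difference. For the same reason the shares of all records, 6.18% and 9.73%, are no fair scale for the 4 genes.

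**Figure D2:**
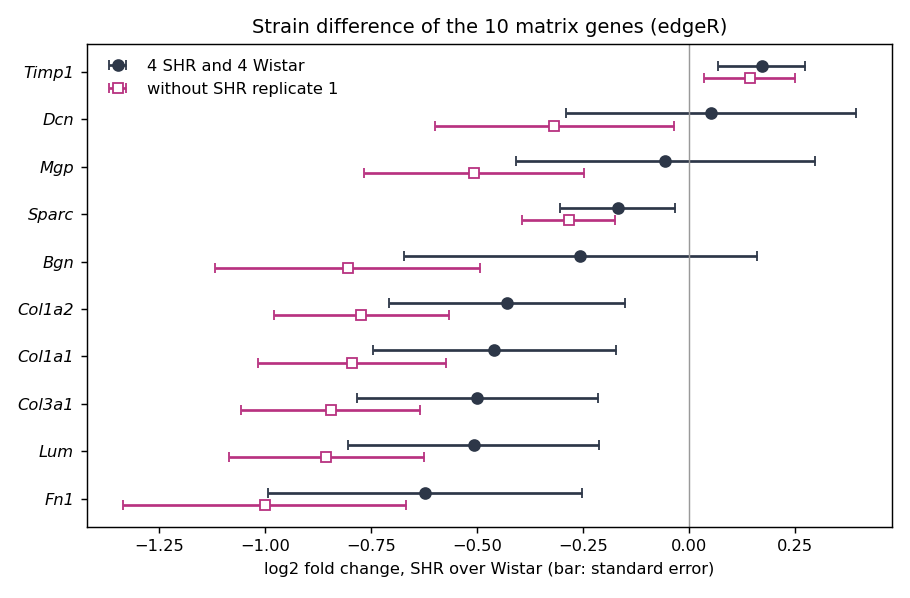
Log2 fold change of SHR over Wistar for each gene by edgeR, with its standard error as the bar, in the 8 rats (filled circles) and without SHR replicate 1 (open squares). Without that rat 9 of the 10 fold changes lie below 0, from -0.28 for Sparc to -1.0 for Fn1, and that of Timp1 stays at 0.14. It was the highest SHR rat for each gene in normalised counts, so leaving it out was bound to lower each fold change.

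The proportions among the collagens differed less than their levels. The triple helix of type I collagen is built from chains of both Col1a1 and Col1a2. The ratio of Col1a1 to Col1a2 in TPM was 0.719, 0.683, 0.668 and 0.564 in Wistar and 0.647, 0.569, 0.574 and 0.870 in SHR, with SHR replicate 4 the highest of the 8. The means were 0.658 ± 0.0666 and 0.665 ± 0.141 (SD, n = 4 per strain; two-sided exact permutation test on log2 ratios, p = 1). The ratio of Col1a1 to Col3a1 averaged 0.948 ± 0.0570 in Wistar and 1.02 ± 0.120 in SHR (SD, n = 4 per strain; exact permutation test, p = 0.371). No p below 0.0286 can be reached with 4 rats in each strain.

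Across the 8 rats, 9 of the 10 genes rose and fell together, and Timp1 did not follow them when the strains were pooled. Among the 36 pairs without Timp1, Pearson's r of log2 CPM (counts scaled to a common library size) had a median of 0.846 and ran from 0.647 for Col1a2 and Dcn to 0.986 for Fn1 and Lum. Spearman's rho had a median of 0.857. With exact permutation p-values adjusted over all 45 pairs, 31 of the 36 were below 0.05 by Pearson's r, 27 by Spearman's rho and 26 by both. The pairs share the same libraries and scaling and are not independent of one another. For scale, the median r over all pairs of tested records was -0.002, and 5.04% of those pairs had an r above 0.7, as did 35 of the 45 pairs of the set.

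Fn1 and Lum had an r of 0.986 and a rho of 0.976, with an adjusted p of 0.00112 for r (exact permutation over the 8 rats). Bgn and Mgp followed at 0.978, and Col1a1 and Col3a1 at 0.968. Col3a1 and Lum put the 8 rats in the same order, with a rho of 1. Col1a1 and Col1a2, the chains of one protein, had an r of 0.917. The looser pairs mostly joined the type I collagens with Dcn, Mgp or Sparc, such as Col1a1 and Mgp at 0.723. Col1a1 and Bgn, at 0.734, and Sparc and Mgp, at 0.761, were also among them.

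The relation held when rats were left out or strain means removed. Without the 2 rats farthest from the median of the first gene of a pair, the median r of the 36 pairs was 0.790, and 35 of the 36 stayed above 0.5. On deviations from the strain means the median was 0.843, from 0.650 to 0.990. Timp1 gave values of r between -0.298 with Col1a1 and 0.302 with Dcn, and 0 of its 9 pairs passed the adjusted threshold by either measure (exact permutation). On deviations from the strain means its values ran from 0.158 with Col1a1 to 0.683 with Bgn. Removing the strain means thus raised each of its 9 values. In normalised counts, Timp1 put the 4 SHR rats in the order 1, 2, 4 and 3, from the highest down. Col3a1, Fn1, Sparc, Dcn, Bgn, Lum and Mgp had the same order. Among the Wistar rats, Timp1 was lowest in replicates 2 and 3 in that unit. Replicate 3 was the highest Wistar rat for each of the other genes but Sparc. The order of Timp1 depended on the unit. In TPM it was highest in SHR replicate 3 (45.7) and lowest in SHR replicate 4 (40.9) among the SHR rats. Over the 8 rats, its r on log2(TPM + 1) with the other genes ran from -0.50 to -0.17. With 4 rats in a strain no correlation is given.

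**Figure D3:**
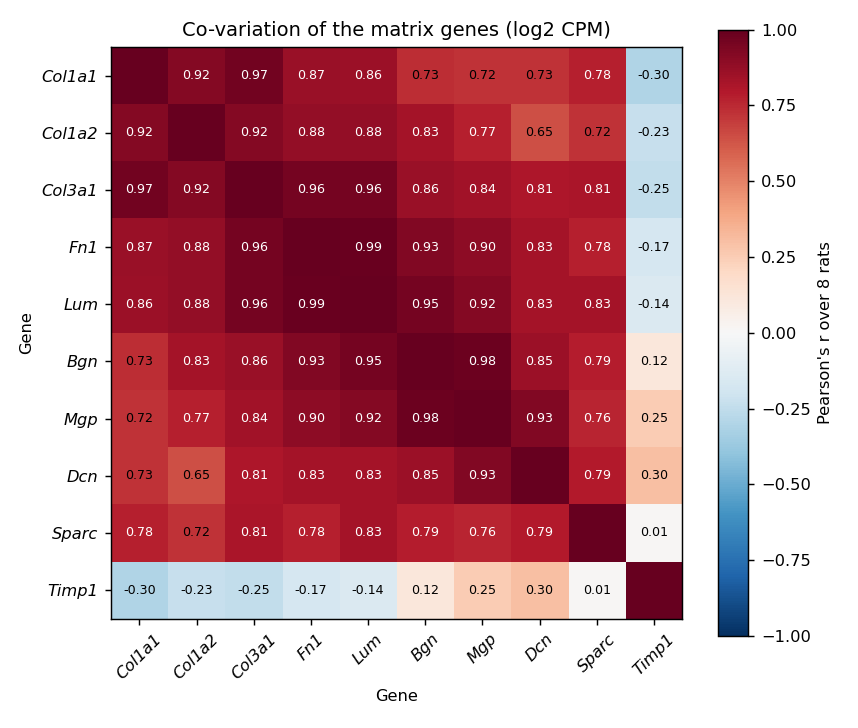
Pearson's r of log2 CPM over the 8 rats for each pair of the 10 genes, printed in each square and coloured from -1 (blue) to 1 (red). The block of 9 genes lies between 0.65 and 0.99, and the row of Timp1 between -0.30 and 0.30.

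The records most like the set were ranked by their correlation with the mean of the 10 standardised log2 values in each rat, over 8 rats. That mean was 1.16 in SHR replicate 1, -0.03 in SHR replicate 2, -1.44 in SHR replicate 3 and -0.82 in SHR replicate 4. In Wistar replicates 1 to 4 it was 0.26, 0.29, 0.79 and -0.21. The closest record was Itgbl1, an integrin-like extracellular protein, with an r of 0.979. It was followed by Fermt3 (0.978), which activates integrins in blood cells, Arhgdib (0.975), Serping1 (0.975), the inhibitor of complement C1, and Alox5 (0.974), which begins leukotriene synthesis. Synpo2 (0.972), an actin-binding protein of muscle, Tpsb2 (0.971), a tryptase of mast cells, and Fhl1 (0.971) completed the first 8. Several of these are known from blood or immune cells, and Tpsb2 gave 130 normalised counts in SHR replicate 1 but 2.82 in SHR replicate 3.

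Other matrix genes were read from 6 lists of 94 genes, of which 76 had a record and 78 records were tested. Of these, 1 was called higher and 0 lower in SHR by edgeR, beside 2.85% of all records called in either direction. An unadjusted p under 0.05 was reached by 11 of the 78 and by 16.8% of all records. The median log2 fold change was 0.04, and 37 of the 78 lay below 0, as did 49.0% of all records. The called record was Ccn1, a matricellular protein that responds to stretch and growth factors. Its TPM was 0.255, 0.545, 1.69 and 1.20 in Wistar replicates 1 to 4 and 12.0, 23.1, 1.65 and 5.93 in SHR replicates 1 to 4. SHR replicate 3 lay within the Wistar range and the other SHR rats above it. The log2 fold change was 3.59 ± 0.809 (edgeR, adjusted p = 0.0466), and the call was lost in 7 of the 8 fits that each left out 1 rat, the exception being the fit without SHR replicate 3.

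The lists differed in how closely they followed the 10 genes. Proteoglycans and glycoproteins had a median r of 0.781 with the mean of the set over the 8 rats, and 13 of 18 records were above 0.7. Mfap5, a microfibril protein, and Ogn, a small proteoglycan, were their most abundant records, with an r of 0.947 and 0.929. Over all records tested the median r was -0.014 and 6.42% were above 0.7. Mfap5 stood at 105 ± 21.3 TPM in Wistar and 98.5 ± 91.0 TPM in SHR (SD, n = 4 per strain), a wide SHR spread like that of Bgn and Mgp, and neither Mfap5 nor Ogn passed the test (edgeR, adjusted p = 0.992 and 0.995).

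The other matrix lists followed less. Collagen processing genes had a median r of 0.268, with Serpinh1, the collagen chaperone, at 0.716 and P4hb, the beta subunit of prolyl 4-hydroxylase, at 0.652. The log2 fold changes of Serpinh1 and P4hb were -0.33 ± 0.272 and -0.60 ± 0.365 (edgeR, adjusted p = 0.572 and 0.433). Basement membrane genes had a median r of 0.327, and their most abundant records, Lamc1 and Lama4, differed between the strains by a log2 fold change of 0.10 ± 0.134 and 0.09 ± 0.153 (edgeR, adjusted p = 0.751 and 0.817). The collagens outside the set had a median r of 0.004, with Col4a1 of basement membranes at -0.219 and Col6a2 of microfibrils at 0.710. Their log2 fold changes were 0.04 ± 0.111 and 0.08 ± 0.239 (edgeR, adjusted p = 0.893 and 0.901).

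Metalloproteinases and their inhibitors had a median r of 0.093. Timp3 and Timp2, the abundant relatives of Timp1, had an r of -0.416 and -0.470 with the set. Timp2 stood at 37.8 ± 2.59 TPM in Wistar and 47.9 ± 4.95 TPM in SHR (SD, n = 4 per strain), and its log2 fold change of 0.35 ± 0.0908 missed the threshold by edgeR (adjusted p = 0.0791) and passed it by DESeq2 (adjusted p = 0.0234). Timp3 gave 0.09 ± 0.0908 (edgeR, adjusted p = 0.648). TGF-beta and matrix signalling genes had a median r of 0.219. Their most abundant records were Itgb1, the common beta chain of collagen and fibronectin receptors, and Smad2, which relays TGF-beta signals, with log2 fold changes of -0.23 ± 0.0898 and -0.21 ± 0.106 (edgeR, adjusted p = 0.234 and 0.351).

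Markers of other cell types moved with the 10 genes to different degrees, and their part in the results was not tested. Of 15 listed fibroblast markers 14 had a record, 5 of them in the set. The other 9 summed to between 996 and 1622 TPM in Wistar and to 1615, 865, 600 and 1007 TPM in SHR replicates 1 to 4, with a median r of 0.587. Of these 9 records, 2 had an r above 0.7, namely Pdgfra (0.953), named after its values were seen, and Mfap5 (0.947). S100a4, the most abundant of the 9, had an r of 0.418. Vim, next in abundance and named after its values were seen, had an r of 0.630. Macrophage markers summed to between 93.4 and 147 TPM in Wistar and to 196, 171, 48.7 and 63.1 TPM in SHR, and 8 of their 9 tested records had an r above 0.7. C1qb and Aif1 were the most abundant, with an r of 0.910 and 0.835. By edgeR neither list had a record past the threshold. Cd34, a fibroblast marker named after its values were seen, ran the other way from most of the set, at 1.90 ± 0.978 TPM in Wistar and 7.91 ± 5.99 TPM in SHR (SD, n = 4 per strain). Its log2 fold change of 2.10 ± 0.531 missed the threshold by edgeR (adjusted p = 0.0744) and passed it by DESeq2 (adjusted p = 0.000601).

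Adipocyte markers summed to between 16.5 and 79.2 TPM in Wistar and to 217 TPM in SHR replicate 1, against 21.9, 13.9 and 19.9 TPM in the other SHR rats. Fabp4 and Cfd led that list, and Plin1 and Lep, its members with a mean below 1 TPM, were not tested. Smooth muscle and pericyte markers summed to between 73.4 and 148 TPM in Wistar and to 149, 122, 37.3 and 49.8 TPM in SHR, with Tagln at an r of 0.832 and Rgs5 at 0.131. Endothelial markers summed to between 47.6 and 77.2 TPM in Wistar and between 37.1 and 72.8 TPM in SHR, and 4 of 8 records had an r above 0.7, Cdh5 and Emcn among them. SHR replicate 1 was the highest SHR rat for each of these lists. No marker of these lists passed the threshold by edgeR.

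Of the 5 perineurium and sheath markers, 4 had an r above 0.7 with the set, with Cldn1, the tight junction protein, at 0.863 and Itgbl1 at 0.979. Cldn1 gave 38.0, 70.9, 60.3 and 58.7 TPM in Wistar and 63.7, 39.1, 15.3 and 13.1 TPM in SHR. The fifth, Lgals3, was higher in SHR, at 278 ± 8.77 TPM against 140 ± 10.3 TPM in Wistar (SD, n = 4 per strain; edgeR, log2 fold change 0.97 ± 0.0817, adjusted p = 0.000191), and its r with the set was -0.315. Lgals3 is also a known gene of macrophages.

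Neuronal and glial sums varied less between rats than the set did. Sympathetic neuron markers summed to between 33892 and 39410.5 TPM in Wistar and between 34687 and 40749 TPM in SHR. Their median r was -0.042, with 0 of 11 records above 0.7 and 6 below 0. Slc6a2, named after its values were seen, had the lowest r of the 11, at -0.838. Glial markers summed to between 2488 and 3005 TPM in Wistar and between 2243 and 2914 TPM in SHR, with a median r of 0.190. Among the glial records 3 of 16 had an r above 0.7, namely S100b (0.705) and 2 records of the myelin gene Mbp (0.894 and 0.880), whereas Pmp22, their most abundant record, had an r of -0.368 and Sox10, a glial transcription factor, -0.832. Of these lists, 2 records of the neuronal gene Ddc were lower in SHR (edgeR, adjusted p = 0.000306 and 0.00162), and no glial record passed the threshold by edgeR. Another Ddc record, NM_012545, was low, at 2.09 TPM in Wistar and 2.37 TPM in SHR. It was not lower in SHR (log2 fold change 0.17 ± 0.352, edgeR, adjusted p = 0.850). Without SHR replicate 1, edgeR called 2 other Mbp records lower, NM_001025292 (log2 fold change -0.93, adjusted p = 0.0279) and NM_001025294 (-0.58, adjusted p = 0.0307), and in the 8 rats DESeq2 called the first of these (adjusted p = 0.00908). These glial records were named after their values were seen. Striated muscle markers lay between 42.1 and 58.4 TPM in the 8 rats, mostly Acta1, and 4 of the 6 genes had a mean below 1 TPM.

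**Figure D4:**
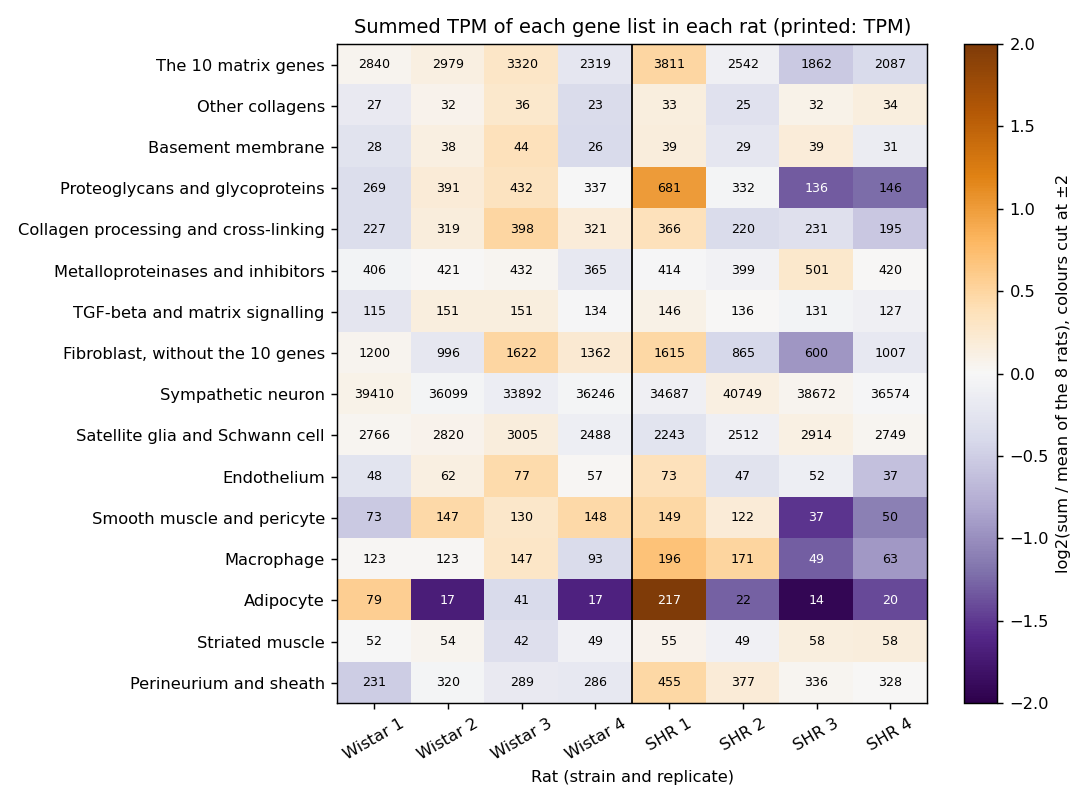
Summed TPM of the 10 genes and of each gene list in each rat, printed in the squares, with colours giving the log2 ratio to the mean of the 8 rats. The 10 genes and the proteoglycan, macrophage, adipocyte, smooth muscle and perineurium lists share their highest rat, SHR replicate 1. For smooth muscle it lies just above Wistar replicate 4. Neuronal and glial sums stay within 33892 to 40749 and 2243 to 3005 TPM.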

How the data were processed

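RNA of 8 right stellate ganglia was sequenced as 75-base read pairs. The labels give a stranded mRNA kit and a micro extraction kit, whereas the methods name an RNeasy Mini kit and SMARTer amplification. The authors quantified reads against rn6 RefSeq transcripts with Salmon 0.8.2, after FastQC 0.11.7, correcting for GC and positional bias. The deposited files hold, for each record and rat, an estimated count, not scaled between samples, and a TPM value. Salmon divides reads shared by similar transcripts, which can shift a single record. Replicates were not pooled.

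The members and lists were chosen with earlier results of these data known. RefSeq's gene table (GRCr8) paired 17352 of 18314 records with a gene, and its coordinates were not used. Records that share a gene were kept apart.

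Estimated counts were rounded and tested with edgeR 4.0.16 in R 4.3.3 (filterByExpr with its minimum count of 10, TMM, glmQLFit and glmQLFTest), SHR against Wistar, with Benjamini-Hochberg adjusted p under 0.05 over 13659 records. Standard errors were taken as the size of the log2 fold change over the root of F. Normalised counts are counts divided by the effective (TMM-scaled) library size, times the mean of that size over the rats. For correlations, log2 CPM was computed with 2 as the prior count. Exact permutation tests were two-sided. Named outside the 10 genes were records past the threshold (at most 4) and the 2 with the highest mean TPM of each list, and the 8 most correlated records. For the glial list 1 record is not reported here. Per-rat values of adipocyte totals, Tpsb2 and Cldn1 were chosen after the data were seen.

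Alternatives were DESeq2 1.42.0, limma 3.58.1 on log2(TPM + 1) or log2(TPM + 0.1), other scalings and filters, a length offset, sums per gene, leaving out each rat, and the replicate number as a block. Fits were tested on simulated data. The 4 rats per strain were separate animals, and depth ran from 25820299 to 35509074 counts.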

Additional observations from a re-analysis of the deposited data

How the results depend on the processing

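Of 378 values recomputed under alternatives, 331 kept their direction and their side of the threshold or stayed within the limits set for counts. No member was called in any alternative except DESeq2 without SHR replicate 1, a fit added after the data were seen, which called 4 lower. For the other matrix genes, where 1 was called higher and 0 lower, DESeq2 with a length offset called 4 higher and 1 lower, DESeq2 alone 3 and 1, and DESeq2 without SHR replicate 1 called 2 and 9. With library size only, limma on log2(TPM + 1), limma on log2(TPM + 0.1) or the replicate block, 0 were called higher, and leaving out 1 rat gave 0 to 1. Of the cell markers, 1 was called higher and 2 lower. DESeq2 with a length offset called 2 and 5, DESeq2 alone 2 and 4, and DESeq2 without SHR replicate 1 called 3 and 16, while sums per gene gave 1 lower and leaving out 1 rat gave 2 to 4 lower. The 4 came without SHR replicate 1. The causes were not tested.

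The log2 fold change of Dcn, 0.05, turned to -0.31 in DESeq2 without SHR replicate 1, to -0.11 in both limma fits and to -0.071 with the replicate block, and ran from -0.32 to 0.31 when each rat was left out. Leaving out 1 rat gave -0.81 to 0.011 for Bgn, -0.51 to 0.20 for Mgp, -0.14 to 0.066 for the log2 ratio of Col1a1 to Col1a2 between strains, -0.79 to -0.19 for the median over the members and 0.701 to 0.866 for the median r over all 45 pairs, Timp1 included, which was 0.828 in the 8 rats. Rats with the same replicate number did not deviate together from their strain means (r from -0.29 to -0.04). These correlations over many records cannot exclude a pairing that touched few of them. The block gave a median log2 fold change of -0.49 over the members and called 0 of the 10.

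The values rest on 4 rats per strain with 1 ganglion each, and a p that misses the threshold does not show that the strains are alike. The kits named in the labels and the methods differ.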
